A study of Mus musculus with 2 samples.

Results

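A set of 9 genes of the extracellular matrix was described across the oligodendrocyte lineage of the uninjured and the injured mouse optic nerve. They were the matrix metalloproteinases Mmp11 and Mmp15, the secreted proteases Adamts1 and Adamts4, the tissue inhibitors of metalloproteinases Timp2, Timp3 and Timp4, and the collagen VI chains Col6a1 and Col6a2. These 9 of the 31053 genes in the table were chosen with their measured levels by type, library and depth in view, so their levels and their differences between classes are a description and no test was made of them. All 9 were found in the table. In oligodendrocytes of the injured nerve, Mmp11, Adamts1, Col6a1 and Col6a2 stood above the uninjured library, Mmp15 and Timp3, both on few UMIs, stood below it, and Adamts4 had a ratio of 1.01. Timp4 and Timp3 were instead held by newly formed oligodendrocytes (NFOs) and precursors (OPCs), and Mmp15 mainly by OPCs.

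The extracellular matrix around glia is remodeled by zinc-dependent proteases. Matrix metalloproteinases are made as inactive proforms. Mmp11, or stromelysin 3, is activated inside the secretory pathway, and Mmp15 is a membrane-anchored member of the family. Adamts1 and Adamts4 cleave chondroitin sulfate proteoglycans such as aggrecan, versican and brevican, and Adamts4 is known to be expressed by mature oligodendrocytes. TIMPs bind and block these enzymes, Timp3 also acts on ADAMTS enzymes and is held in the matrix, and collagen VI is a beaded microfibril built from an alpha 1, an alpha 2 and a further alpha chain and is better known from fibroblasts and nerve sheaths.

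The data were 2 single cell RNA sequencing (scRNA-seq) libraries, 1 for each condition, so no difference has a replicate check. Each library pooled 5 optic nerves of wildtype 129S1/SvlmJ mice of both sexes, from the crush site 2 weeks after optic nerve crush (ONC) for the injured library and from uninjured nerves for the other. The labels give P56 and the time after crush for both libraries, while the design gives 10-week-old mice crushed at 8 weeks, and the uninjured library was recognized by its title. The authors deposited the barcodes of the lineage with their type, 959 uninjured (58 OPC, 44 NFO and 857 oligodendrocyte) and 410 injured (17, 100 and 293), and 0 barcodes were shared. The deposited values are normalized expression (NE) values on a natural log scale, relative to 10000 UMIs (unique molecules) in each barcode, from which whole UMIs were recovered. Levels are given as CPM, the UMIs of a gene in every 1000000 UMIs summed over a class of barcodes, with 95% Poisson intervals. Differences are given as ratios of CPM with exact conditional intervals. All of these intervals cover counting error only. What a count of 0 allows is given as a floor of 3 UMIs (for shares, 3 barcodes) over the class. This floor is lower than the upper end of the 95% interval.

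Depth and RNA quality moved with the condition. Oligodendrocyte barcodes had a median of 3060 UMIs (range 291 to 34653) in the uninjured and 1268 UMIs (502 to 58568) in the injured library, and NFOs 1259.5 and 1258.5 UMIs. The summed depth was 4149375 and 2302349 UMIs in oligodendrocytes, 94130 and 351851 in NFOs, and 171329 and 117597 in OPCs. Barcodes with under 0.5% of their UMIs from the nuclear RNA Malat1 were 48 of 857 uninjured and 133 of 293 injured oligodendrocytes, and 28 of 44 and 77 of 100 NFOs. By summed lists the type labels went with their markers. The OPC list had 9514 and 9328 CPM in uninjured and injured OPCs, 3612 and 2186 CPM in NFOs and 544 and 632 CPM in oligodendrocytes. The NFO list had 5004 and 7642 CPM in NFOs against 1134 and 1031 CPM in oligodendrocytes. The oligodendrocyte list had 67474.5 and 56852 CPM in oligodendrocytes, 10230.5 and 16896 CPM in NFOs and 2434 and 1029 CPM in OPCs. Of the NFO list, Enpp6 went the other way without injury, with 404 CPM in NFOs and 524 CPM in oligodendrocytes. The list of macrophage markers was higher after injury in every type, from 28.7 to 287 CPM in oligodendrocytes, from 21.2 to 648 CPM in NFOs and from 46.7 to 255 CPM in OPCs. A UMI of it was found in 80.9% of injured oligodendrocytes. Injured oligodendrocytes with a UMI of it (237) and with none (56) had 33.9 CPM (26.2 to 43.1) and 11.3 CPM (3.08 to 29.0) of Col6a1. In the same order, Col6a2 had 37.97 CPM (29.8 to 47.7) and 19.8 CPM (7.97 to 40.8). Mmp11 had 20.01 CPM (14.2 to 27.4) and 11.3 CPM (3.08 to 29.0), and Adamts1 111 CPM (96.5 to 127) and 125 CPM (90.5 to 167). The intervals overlap for each gene, which does not show that the levels are equal. Col6a1, Col6a2 and Mmp11 had higher values with a macrophage UMI, and Adamts1 a lower one. Col6a1 had 66 UMIs among 1949053 with a macrophage UMI and 4 among 353296 with none. No ratio with an interval was computed between these classes. The part of macrophage RNA in the results was not tested.

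In GENCODE vM21 on GRCm38, the build of the counts (mm10), the proteases were Mmp11 (ENSMUSG00000000901; chr10:75923222-75936496, minus strand), Mmp15 (ENSMUSG00000031790; chr8:95352268-95375080, plus strand), Adamts1 (ENSMUSG00000022893; chr16:85793827-85803113, minus strand) and Adamts4 (ENSMUSG00000006403; chr1:171250421-171260637, plus strand). The inhibitors were Timp2 (ENSMUSG00000017466; chr11:118301069-118355740, minus strand), Timp3 (ENSMUSG00000020044; chr10:86300372-86349506, plus strand) and Timp4 (ENSMUSG00000030317; chr6:115241892-115252205, minus strand). The collagen chains were Col6a1 (ENSMUSG00000001119; chr10:76708792-76726168, minus strand) and Col6a2 (ENSMUSG00000020241; chr10:76595762-76623630, minus strand), neighbors on chromosome 10 read from the same strand. Mmp11 overlaps Chchd10, Timp3 lies across Syn3 and Timp4 across Syn2, each on the opposite strand. Sharing of UMIs with these partners would need reads counted without regard to strand. Cep295nl lies in Timp2 on its own strand, so UMIs of Timp2 may be shared with it where the counting did not part them. The longest coding frames were 492 residues for Mmp11, 657 for Mmp15, 968 for Adamts1 and 845 for Adamts4. The TIMPs were short and alike, with 220, 211 and 224 residues for Timp2, Timp3 and Timp4 and 12, 13 and 12 cysteines, and 45.9% to 49.3% of the aligned residues were identical between any pair. Adamts1 and Adamts4 shared 52.0% of aligned residues, Col6a1 and Col6a2 39.8%, and Mmp11 and Mmp15 38.8%.

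The sequences before the start sites of the 4 members with higher levels in injured oligodendrocytes are shown to allow comparison, as given by RefSeq on GRCm38.p6, 5′ to 3′ on the strand of each gene and without bases that GENCODE places in an exon. They are chr10:75932503-75932752 (minus), which lies within the GENCODE span of Mmp11 but in none of its exons, chr16:85803114-85803363 (minus), chr10:76726169-76726294 (minus) and chr10:76623631-76623880 (minus).
Mmp11: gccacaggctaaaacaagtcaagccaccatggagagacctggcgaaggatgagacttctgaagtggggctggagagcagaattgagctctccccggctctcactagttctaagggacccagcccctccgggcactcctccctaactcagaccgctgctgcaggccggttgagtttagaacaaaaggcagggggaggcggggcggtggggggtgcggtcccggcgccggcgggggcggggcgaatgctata
Adamts1: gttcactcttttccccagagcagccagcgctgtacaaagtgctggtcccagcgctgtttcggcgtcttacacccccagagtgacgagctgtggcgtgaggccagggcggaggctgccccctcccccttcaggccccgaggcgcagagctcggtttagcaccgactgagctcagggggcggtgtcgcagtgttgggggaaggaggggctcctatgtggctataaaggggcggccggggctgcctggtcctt
Col6a1: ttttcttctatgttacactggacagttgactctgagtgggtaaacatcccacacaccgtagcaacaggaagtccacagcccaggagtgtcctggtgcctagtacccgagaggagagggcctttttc
Col6a2: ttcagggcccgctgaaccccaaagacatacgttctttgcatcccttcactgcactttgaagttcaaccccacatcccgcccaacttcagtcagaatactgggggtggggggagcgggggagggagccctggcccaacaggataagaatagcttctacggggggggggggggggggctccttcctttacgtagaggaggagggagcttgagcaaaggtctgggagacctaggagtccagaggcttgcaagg

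The binding motif of the AP-1 factors, TGANTCA (the same on both strands), was searched in the 250 bases before the RefSeq starts of the 8 members that have such a window. It was found in 1 of them, Col6a1, 90 bases before the start, at chr10:76726118-76726144 (minus) with 10 bases on each side and the match in capitals.
Col6a1 site: gctgatgctgTGACTCActcagctttg
GENCODE places this match in an exon of Col6a1. Of all 32851 windows of this length, 6.75% held the motif, so a match in 1 of 8 members is a description of the letters and not of binding.

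Mmp11 was nearly absent from uninjured oligodendrocytes. It had 2 UMIs in OPCs, 0 in NFOs and 2 in the 857 oligodendrocytes of the uninjured library, and 0, 2 and 43 in the injured library. In oligodendrocytes its level was 0.482 CPM (interval 0.0584 to 1.74) without injury and 18.7 CPM (13.5 to 25.2) after ONC, a ratio of 38.7 (10.1 to 330). The intervals do not overlap. In uninjured OPCs the 2 UMIs stand for 11.7 CPM (1.41 to 42.2), an interval that overlaps that of injured oligodendrocytes. The 43 UMIs came from 24 of 293 barcodes, 8.19% (exact binomial interval 5.32 to 11.9), with at most 5 UMIs in 1 barcode, against 2 of 857 barcodes, 0.233% (0.0283 to 0.840). In the 100 injured NFOs it was found in 1 barcode, which held both UMIs, and the other counts of 0 allow up to 31.9 CPM in uninjured NFOs and 25.5 CPM in injured OPCs.

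Mmp15 followed the lineage in the reverse direction. Its level was highest in OPCs, at 700.4 CPM (581 to 838) in the uninjured and 553 CPM (427 to 705) in the injured library, with overlapping intervals. NFOs came next, with 255 CPM (163 to 379) without and 39.8 CPM (21.8 to 66.8) after injury. Oligodendrocytes were lowest, with 8.92 CPM (6.28 to 12.3) and 1.303 CPM (0.269 to 3.81). In this order of 6 classes, every pair of neighbors but the 2 OPC classes had intervals that do not overlap. Of the OPC barcodes, 41 of 58 without injury and 14 of 17 after it held a UMI, against 32 of 857 and 2 of 293 oligodendrocytes. Within the uninjured library the level in OPCs was 78.5 (53.9 to 117) times that in oligodendrocytes. After injury Mmp15 was 6.41-fold (3.18 to 13.4) lower in NFOs and 6.84-fold (2.167 to 34.7) lower in oligodendrocytes, and in OPCs the ratio was 0.789 (0.574 to 1.08). Without barcodes poor in Malat1 the ratio in NFOs was 0.558, from 4 injured and 2 uninjured UMIs. By depth, the ratio in NFOs was 0.130 (0.0124 to 0.795) under 1000 UMIs and 0.227 (0.0852 to 0.547) from 1000 to under 3000 UMIs. From 3000 to under 10000 UMIs it was 1.26 (0.101 to 66.3), from 3 injured and 1 uninjured UMIs. NFOs of at least 10000 UMIs held 1 injured and 0 uninjured UMIs of Mmp15. The OPC marker list was also lower in injured NFOs, with 3612 CPM (3238 to 4017) without and 2186 CPM (2034 to 2346) after injury. The part of OPC RNA in the NFO levels of Mmp15 was not tested.

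Adamts1 was found in every type, with its highest values in OPCs and injured oligodendrocytes. In OPCs it stood at 111 CPM (66.8 to 173) without injury and 136 CPM (77.8 to 221) after ONC, from 19 and 16 UMIs, 9 of the 19 in 1 barcode. Oligodendrocytes had 155 UMIs in 79 of 857 uninjured barcodes and 260 UMIs in 56 of 293 injured barcodes. Their level was 37.4 CPM (31.7 to 43.7) and 113 CPM (99.6 to 128), a ratio of 3.02 (2.47 to 3.71), so that the level of injured oligodendrocytes reached that of OPCs, with overlapping intervals. The UMIs were uneven across barcodes, with up to 22 in 1 uninjured and up to 32 in 1 injured barcode, 14.2% and 12.3% of all UMIs of the class. The 3 highest injured barcodes had 32, 23 and 21 UMIs of Adamts1 at 26897, 58568 and 16645 UMIs in all, with 81, 167 and 45 UMIs of Mag, the myelin-associated glycoprotein. NFOs had 0 UMIs without and 11 UMIs after injury, 31.3 CPM (15.6 to 55.9).

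Adamts4, the other aggrecanase, marked oligodendrocytes in both libraries with a ratio between them near 1. Its level in oligodendrocytes was 154 CPM (143 to 167) without and 156 CPM (141 to 173) after injury, from 641 and 360 UMIs, a ratio of 1.01 with an interval of 0.887 to 1.153. As a mean of the CPM of single barcodes, which weighs shallow barcodes like deep ones, the ratio was 0.642. It was lower in NFOs, with 42.5 CPM (11.6 to 109) and 85.3 CPM (57.5 to 122), and lowest in OPCs, with 17.5 CPM (3.61 to 51.2) from 3 UMIs and 0 from 0 UMIs. The ratio between the libraries in NFOs was 2.01 with an interval of 0.707 to 7.84, which spans 1. In uninjured OPCs the level was 8.82-fold (3.01 to 42.9) lower than in oligodendrocytes, and 3 of 58 OPC barcodes (5.17%) had a UMI against 365 of 857 oligodendrocytes (42.6%).

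Timp2 was the inhibitor of every type. Oligodendrocytes had 499 UMIs without and 390 UMIs after injury, 120.3 CPM (109.9 to 131) and 169 CPM (153 to 187), a ratio of 1.41 (1.23 to 1.61) that was past counting error and under 2-fold. In barcodes under 8000 UMIs the ratio was 0.827. NFOs had 95.6 CPM (43.7 to 182) and 117 CPM (83.6 to 158), and OPCs 257 CPM (187 to 345) and 247 CPM (165 to 354). OPCs were thus above oligodendrocytes in the uninjured library, by 2.14 (1.53 to 2.91), and NFOs over oligodendrocytes had ratios of 0.795 (0.361 to 1.52) in the uninjured and 0.688 (0.486 to 0.951) in the injured library.

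Timp3 and Timp4 were inhibitors of the early lineage. Timp3 had 105 CPM (62.3 to 166) and 136 CPM (77.8 to 221) in uninjured and injured OPCs and 149 CPM (81.3 to 250) and 168 CPM (128 to 216) in NFOs, 4 levels with overlapping intervals. In oligodendrocytes it had 5.78 CPM (3.71 to 8.61) from 24 UMIs and 2.172 CPM (0.705 to 5.07) from 5 UMIs, 2.66-fold lower after injury with an interval (0.996 to 8.94) that reaches 1. Timp4 had 181 CPM (123 to 257) and 136 CPM (77.8 to 221) in OPCs, and 255 CPM (163 to 379) in uninjured and 412 CPM (348 to 485) in injured NFOs. In oligodendrocytes 3 and 2 UMIs of Timp4 were found, 0.723 CPM (0.149 to 2.11) and 0.869 CPM (0.105 to 3.14). Within the injured library, Timp4 in NFOs was 474 (129 to 3955) times and Timp3 77.2 (31.3 to 247) times the level in oligodendrocytes.

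The NFO levels of these inhibitors rested on different numbers of barcodes. Timp4 was found in 13 of 44 uninjured NFOs (29.5%, 16.8 to 45.2) and 34 of 100 injured NFOs (34%, 24.8 to 44.2), and the ratio of its CPM was 1.62 (1.04 to 2.60). The highest injured barcode held 31 of the 145 UMIs. Timp3 was found in 8 of 44 (18.2%) and 15 of 100 (15%) NFOs, with a ratio of 1.13 (0.622 to 2.19), and 2 injured barcodes of 18 UMIs each were the highest of the 59 UMIs. Both were found together in 9 injured NFO barcodes, where the product of their shares is 5.10 barcodes, and deeper barcodes hold more of every gene. Timp3 and Timp4 are also known from astrocytes. The astrocyte marker list had 212 CPM (130 to 328) in uninjured and 324 CPM (267 to 389) in injured NFOs, and 91 of its 114 injured UMIs were of Gfap, in 14 barcodes. A single NFO barcode of 23782 UMIs held 62 of these Gfap UMIs and 73 of the 114, with 8 UMIs of Timp3 and 7 of Timp4. In the 80 injured NFOs with no UMI of the astrocyte list, Timp4 stood at 412 CPM (339 to 495) and Timp3 at 176 CPM (130 to 234), and in the 20 with a UMI at 413 CPM (285 to 581) and 138 CPM (68.8 to 247). In the 20 injured NFOs with a UMI of the fibroblast, pericyte and endothelial list, Timp3 stood at 278 CPM (200.5 to 376) and Timp4 at 490.1 CPM (385 to 615), and in the 80 with none at 84.6 CPM (49.3 to 136) and 354 CPM (276 to 446). Both barcodes of 18 Timp3 UMIs held a UMI of that list, and without them, a choice made after seeing the data, the other 18 had 6 UMIs of Timp3, 58.9 CPM (21.6 to 128), which overlaps the level of the 80 with none. The part of other cells in Timp3 and Timp4 was not tested.

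**Figure D1:**
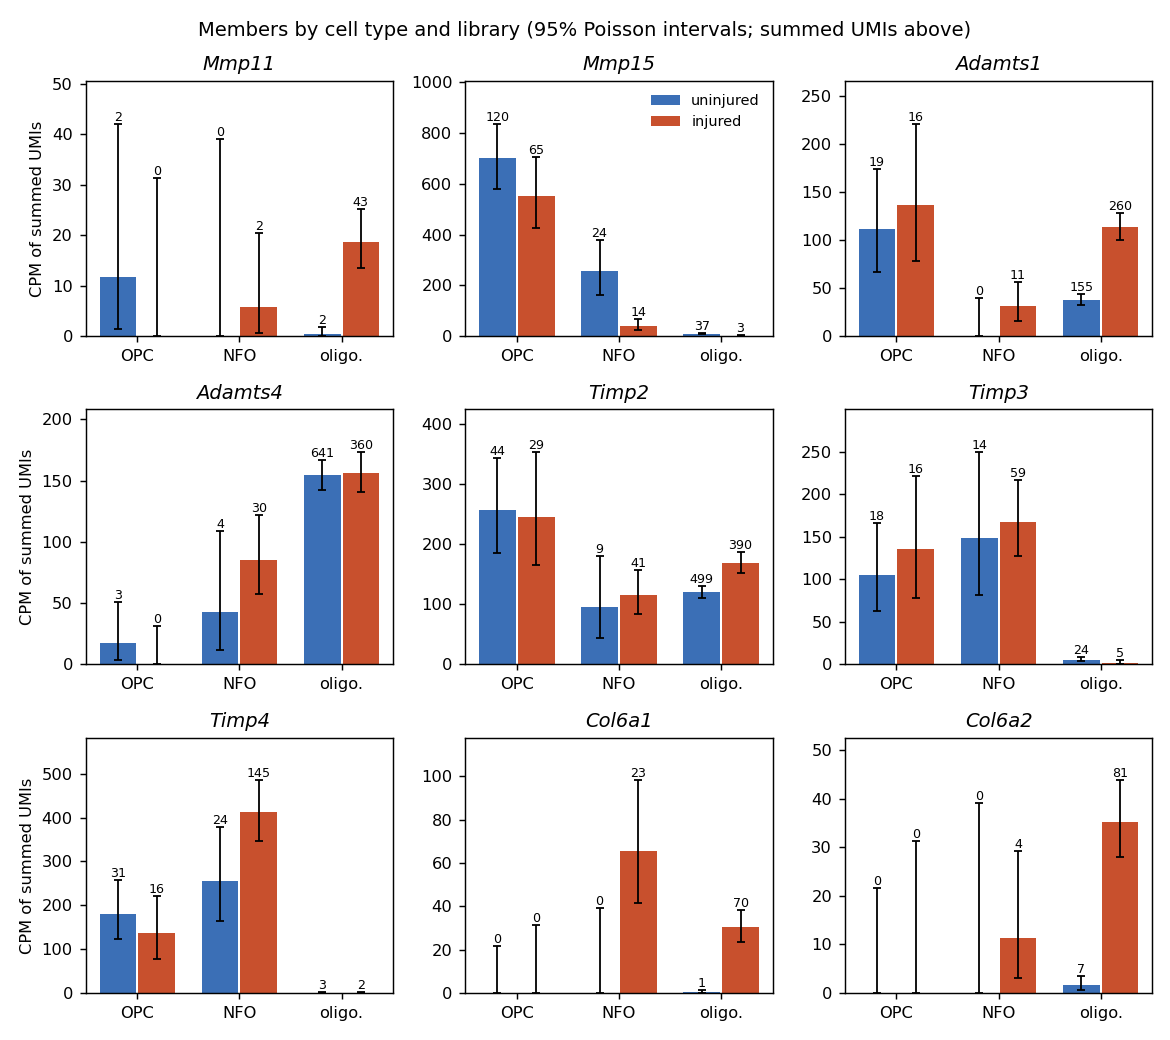
Levels of the 9 members (y axis, CPM of summed UMIs, linear from 0) in OPCs, NFOs and oligodendrocytes (x axis) of the uninjured (blue) and injured (red) library, with 95% Poisson intervals and the summed UMIs above each bar. Mmp11, Adamts1, Col6a1 and Col6a2 are higher in injured than in uninjured oligodendrocytes, with 43 against 2, 260 against 155, 70 against 1 and 81 against 7 UMIs, while Mmp15, Timp3 and Timp4 are held by OPCs and NFOs.

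The 2 collagen VI chains were seen almost only after injury. Col6a1 had 0 UMIs in uninjured OPCs and NFOs and 1 UMI in the uninjured oligodendrocytes, and 0, 23 and 70 UMIs in injured OPCs, NFOs and oligodendrocytes. Col6a2 had 0, 0 and 7 UMIs and 0, 4 and 81 UMIs in the same order. In oligodendrocytes the level of Col6a1 was 0.241 CPM (0.00610 to 1.34) without and 30.4 CPM (23.7 to 38.4) after injury, a ratio of 126 (21.9 to 5053). Col6a2 had 1.69 CPM (0.678 to 3.48) and 35.2 CPM (27.9 to 43.7), a ratio of 20.9 (9.67 to 53.5). The barcodes with a UMI were 23 of 293 (7.85%, 5.04 to 11.5) for Col6a1 and 30 of 293 (10.2%, 7.02 to 14.3) for Col6a2, against 1 and 6 of 857 uninjured ones. In OPCs, where neither was found in 58 uninjured barcodes of a median 2290 UMIs and 17 injured barcodes of a median 4120 UMIs, counts of 0 allow up to 17.5 and 25.5 CPM.

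The chains were often found in the same barcodes. Among injured oligodendrocytes of at least 3000 UMIs, 16 of 114 had Col6a1, 28 had Col6a2 and 14 had both, where the product of their shares is 3.93 barcodes, and deeper barcodes hold more of both. The 14 are 87.5% of the barcodes with Col6a1 and 50% of those with Col6a2. By the same count, Mmp11 (24 barcodes) and Adamts1 (53 barcodes) were together in 15 where the product is 11.2, and Mmp11 and Col6a1 in 3 where it is 3.37. The barcode with most Col6a1 held 12 UMIs of it and 7 of Col6a2 among 38358 UMIs, with 163 UMIs of Mag. The next had 7 and 4 UMIs among 16844, with 57 of Mag. Mag was found in all 24 barcodes with Mmp11, in 20 of 23 with Col6a1 and in 28 of 30 with Col6a2. In the same order, the macrophage list was found in 21, 22 and 27 of these barcodes and the astrocyte list in 14, 11 and 13. The fibroblast, pericyte and endothelial list was found in 8, 4 and 6. These barcodes were deep, with medians of 26713, 16844 and 19877.5 UMIs, and deep barcodes hold more of every gene. The third alpha chain, Col6a3, had 1 UMI in uninjured and 3 UMIs in injured oligodendrocytes, Col6a6 had 2 and 0, and Col6a4 and Col6a5 had 0 in both.

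Other cells of the nerve make collagen VI, so the markers of fibroblasts, pericytes and endothelium were set beside it. This list of 14 genes had 45.3 CPM (39.1 to 52.3) in uninjured and 37.8 CPM (30.3 to 46.6) in injured oligodendrocytes, with a UMI in 9.10% and 18.4% of the barcodes. All 14 were found in the uninjured class, and the pericyte and endothelial genes Pdgfrb, Rgs5, Kcnj8 and Cldn5 were at 0 in the injured one. Fibroblast genes of the list had higher values after injury, Col1a2 with 6.51 and 16.1 CPM, Col3a1 with 1.205 and 3.47, Col1a1 with 0.723 and 1.74, Dcn with 3.37 and 4.78 and Lum with 0.241 and 3.04 CPM, from 1 to 37 UMIs each, while Igfbp6 had 3.86 and 1.303 CPM. In the 239 injured oligodendrocytes with no UMI of the list, Col6a1 stood at 41.9 CPM (32.4 to 53.4), Col6a2 at 45.1 CPM (35.2 to 57.0), Mmp11 at 16.1 CPM (10.4 to 23.8) and Adamts1 at 124 CPM (107 to 143). In the 54 barcodes with a UMI of it, the levels were 6.65 CPM (2.16 to 15.5), 14.6 CPM (7.30 to 26.2), 23.9 CPM (14.2 to 37.8) and 90.4 CPM (70.2 to 115). Barcodes with a UMI of the list were also deeper, with a median of 10969 against 987 UMIs, and the part of other cells in these levels was not tested. In injured NFOs, 17 of the 23 Col6a1 UMIs lay in 1 barcode of 29396 UMIs, which also held 18 UMIs of Timp3, 3 of Col6a2, 52 of Mag and 1 of the list, and the 80 NFOs with no UMI of the list had 24.9 CPM (8.08 to 58.1).

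In oligodendrocytes, 8 of the 9 members had at least 20 summed UMIs in both libraries together, and Timp4, with 5, did not. Past 2-fold, 4 were higher in the injured library (Mmp11, Adamts1, Col6a1 and Col6a2) and 2 were lower (Mmp15 and Timp3), where 7.72% of the 10123 genes with this many UMIs were higher and 5.69% lower, at a median ratio of 1.03. In NFOs 6 members had enough UMIs. There Adamts4 (2.01) and Col6a1 (23 against 0 UMIs) were past 2-fold upward and Mmp15 was past it downward, beside 15.5% higher and 6.86% lower among 4038 genes and a median of 1.10. Col6a1 was past it over a floor of 3 UMIs for the class at 0, with a ratio of 2.05 and an exact lower limit of 1.54, and was not past it without its top barcode (6 against 0 UMIs) or without barcodes with a fibroblast, pericyte or endothelial marker (5 against 0 UMIs). Since the members were chosen on these values, nothing is read from these counts. OPCs were not counted, since 17 injured barcodes are few, and the ratios of Mmp15, Adamts1, Timp2, Timp3 and Timp4 lay between 0.752 and 1.295 there with intervals that span 1.

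Between types within a library, the members parted by stage. In the injured library 8 members were counted. Timp3 (77.2), Timp4 (474) and Col6a1 (2.15) were past 2-fold higher in NFOs than in oligodendrocytes, beside 16% of 8943 genes, and Mmp11 (0.304), Adamts1 (0.277) and Col6a2 (0.323) were past 2-fold lower, beside 19%, at a median over all genes of 1.01. Without the barcode that held most of its UMIs, Col6a1 had a ratio of 0.726. Mmp15, whose 14 and 3 UMIs were under the minimum of 20, had a ratio of 30.5 (8.52 to 166). In the uninjured library, OPCs against oligodendrocytes, 6 members were counted. Mmp15 (78.5), Adamts1 (2.97), Timp2 (2.14), Timp3 (18.2) and Timp4 (250) were past 2-fold higher in OPCs beside 26.6% of 9693 genes, Adamts4 was lower beside 14.1%, and the median over all genes was 1.22. Without the barcode with most of their UMIs, Adamts1 (1.96) and Timp2 (1.98) were just under 2-fold. The types were set by the authors from the expression of the same barcodes, so these differences describe the types.

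Among deep barcodes the summed UMIs of the libraries were close. Oligodendrocytes of at least 10000 UMIs were 135 barcodes with 1820244 UMIs in the uninjured and 79 barcodes with 1954074 UMIs in the injured library. The depth of single barcodes was not matched, with a median of 12056 and 22866 UMIs. Mmp11 had 2 and 40, Adamts1 70 and 243, Col6a1 1 and 56, and Col6a2 2 and 68. Mmp15 had 17 and 3, Timp3 10 and 3, Adamts4 271 and 306, and Timp2 192 and 350. The ratio was 18.6 (4.83 to 159) for Mmp11, 3.23 (2.47 to 4.28) for Adamts1, 52.2 (8.99 to 2097) for Col6a1 and 31.7 (8.44 to 267) for Col6a2. It was 0.164 (0.0309 to 0.568) for Mmp15, 1.05 (0.890 to 1.24) for Adamts4 and 1.70 (1.42 to 2.04) for Timp2. Of the 7 members with enough UMIs in these barcodes, 4 were past 2-fold higher, beside 10.7% of 9167 genes, and 1 lower, beside 4.11%, at a median over all genes of 1.12.

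**Figure D2:**
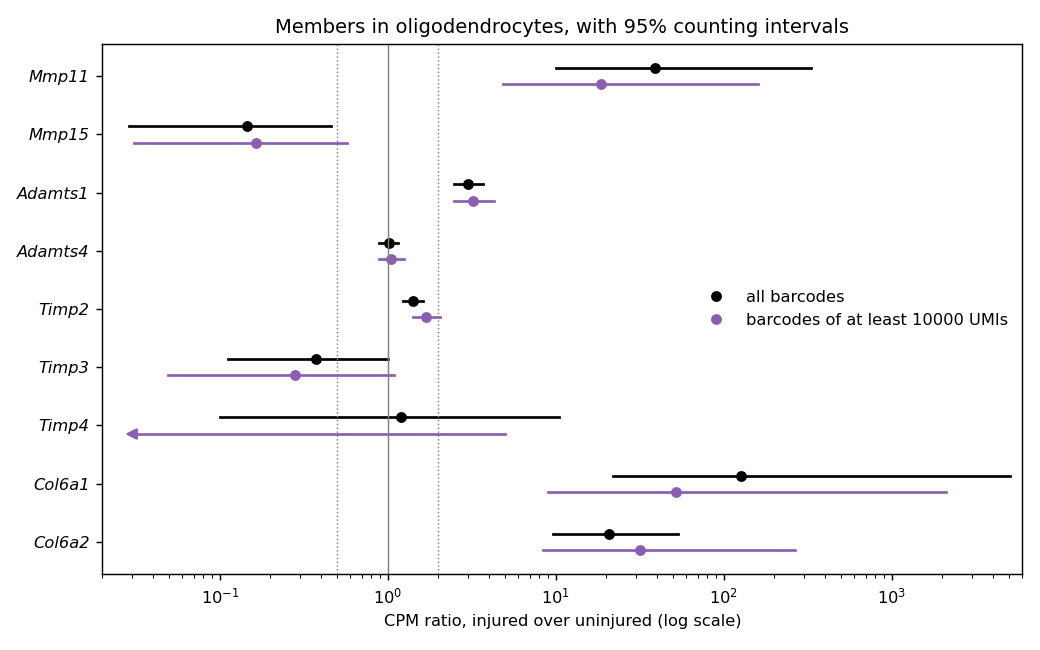
Ratio of CPM between the injured and the uninjured library in oligodendrocytes (x axis, log scale) for the 9 members (y axis), in all barcodes (black) and in those of at least 10000 UMIs (purple), with 95% counting intervals. The line marks 1, the dotted lines 2-fold, and the arrow marks Timp4, which had 0 injured and 2 uninjured UMIs in the deep barcodes. The ratio of Mmp11 is 38.7 in all and 18.6 in deep barcodes, and that of Adamts4 is 1.01 and 1.05.

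The members divided in how they spread over depth. Adamts1 in injured oligodendrocytes stood at 124 CPM (109 to 141) in barcodes of at least 10000 UMIs, 79.0 CPM (43.2 to 132) from 3000 to under 10000 UMIs and 37.7 CPM (7.77 to 110) from 1000 to under 3000 UMIs, and had 0 UMIs in the 133 barcodes under 1000 UMIs. The uninjured levels ran from 28.6 to 63.6 CPM over the 4 depths, and below 3000 UMIs Adamts1 was not higher after injury, with 3 injured UMIs, and 32 and 4 uninjured UMIs in the classes above and under 1000. Mmp11 had 40 of its 43 UMIs in the deepest class and 3 from 3000 to under 10000 UMIs. Its 0 UMIs below allow up to 32.8 CPM under 1000 UMIs and 37.7 CPM from 1000 UMIs, above the 20.5 CPM of the deepest class, so a difference in level was not detectable at this depth. Col6a1 was found at every depth of the injured library, with 43.8 CPM (11.9 to 112), 50.2 CPM (13.7 to 129), 33.8 CPM (12.4 to 73.7) and 28.7 CPM (21.6 to 37.2) from the shallowest to the deepest, intervals that all overlap, against 1 UMI in all uninjured barcodes. Adamts4 in injured oligodendrocytes under 1000 UMIs stood at 65.7 CPM (24.1 to 143) and in uninjured ones at 228 CPM (147 to 336), a ratio of 0.288 (0.0967 to 0.720), while from 1000 UMIs upward its intervals overlapped between libraries.

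**Figure D3:**
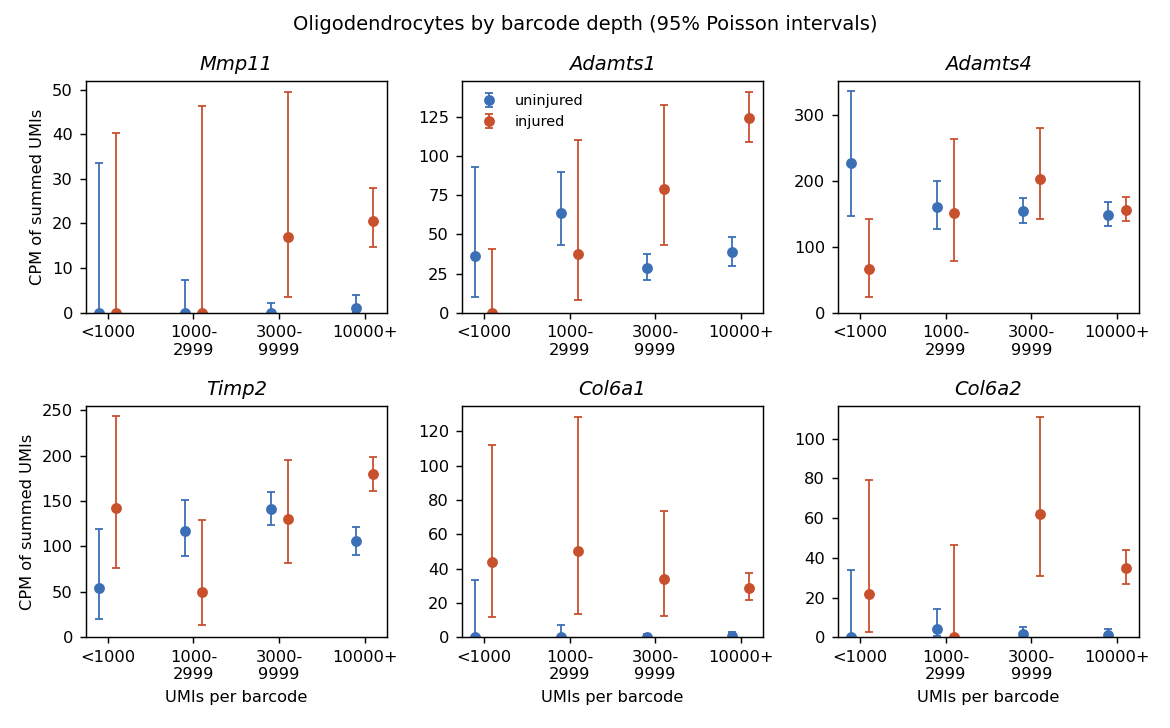
CPM of summed UMIs (y axis, linear from 0) in oligodendrocyte barcodes of 4 depth classes (x axis, UMIs per barcode) for 6 members in the uninjured (blue) and injured (red) library, with 95% Poisson intervals. Col6a1 lies between 28.7 and 50.2 CPM in every injured class, Mmp11 appears in injured barcodes from 3000 UMIs, and the levels of Adamts1 part only from 3000 UMIs upward.

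Shares of barcodes were also compared after each barcode of at least 3000 UMIs was thinned to 3000, a depth chosen after seeing the data, which kept 436 uninjured and 114 injured oligodendrocytes. Adamts1 was then found in 6.19% (4.12 to 8.88) and 21.9% (14.7 to 30.6), Col6a1 in 0.229% (0.00581 to 1.27) and 7.02% (3.08 to 13.4), and Col6a2 in 0.459% (0.0556 to 1.65) and 11.4% (6.21 to 18.7). Mmp11 was found in 0 of 436, which allows a share of up to 0.688%, and 3 of 114, 2.63% (0.546 to 7.498). The exact intervals of Mmp11 overlap, which does not show that its shares are equal. Adamts4 had 38.1% (33.5 to 42.8) and 28.9% (20.8 to 38.2), and Timp2 32.1% (27.7 to 36.7) and 36.8% (28.0 to 46.4). Thinned to 500 UMIs, which kept 838 and 293 barcodes, only Col6a1 of the 4 higher members had shares whose intervals do not overlap, with 0 of 838, which allows up to 0.358%, and 2.73% (1.19 to 5.31), and Adamts1 had 2.15% and 2.05%. Col6a2 had 0.239% (0.0289 to 0.859) and 1.71% (0.556 to 3.94), and Mmp11 was found in 0 of 838 and 2 of 293 barcodes. In OPCs thinned to 3000 UMIs, 12 of 19 barcodes without and 7 of 10 after injury held Mmp15.

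Injured oligodendrocytes poor in Malat1 held Col6a1 but no Adamts1. These 133 barcodes, with a median of 774 UMIs and 128148 UMIs in all, held 0 UMIs of Mmp11, Mmp15 and Adamts1, each of which allows up to 23.4 CPM, and 6 of Col6a1, 46.8 CPM (17.2 to 102), and 2 of Col6a2. Adamts4 was at 62.4 CPM (27.0 to 123) in them and at 162 CPM (145 to 180) in the 160 barcodes with at least 0.5% Malat1, intervals that do not overlap, and Timp2 at 117 CPM (65.5 to 193) and 172 CPM (155 to 191). The other 160 barcodes held all 43 Mmp11 and all 260 Adamts1 UMIs, at 19.8 CPM (14.3 to 26.6) and 120 CPM (105 to 135), and 64 Col6a1 UMIs at 29.4 CPM (22.7 to 37.6). The 0 UMIs of Mmp11 and Mmp15 in the barcodes poor in Malat1 could not show a difference at this depth. Of the 48 uninjured barcodes poor in Malat1, 2 had a UMI of Adamts1, and Adamts4 was at 157 CPM (78.3 to 281) there, as in the other uninjured barcodes at 154 CPM (143 to 167). Depth and Malat1 move together here and cannot be told apart.

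**Figure D4:**
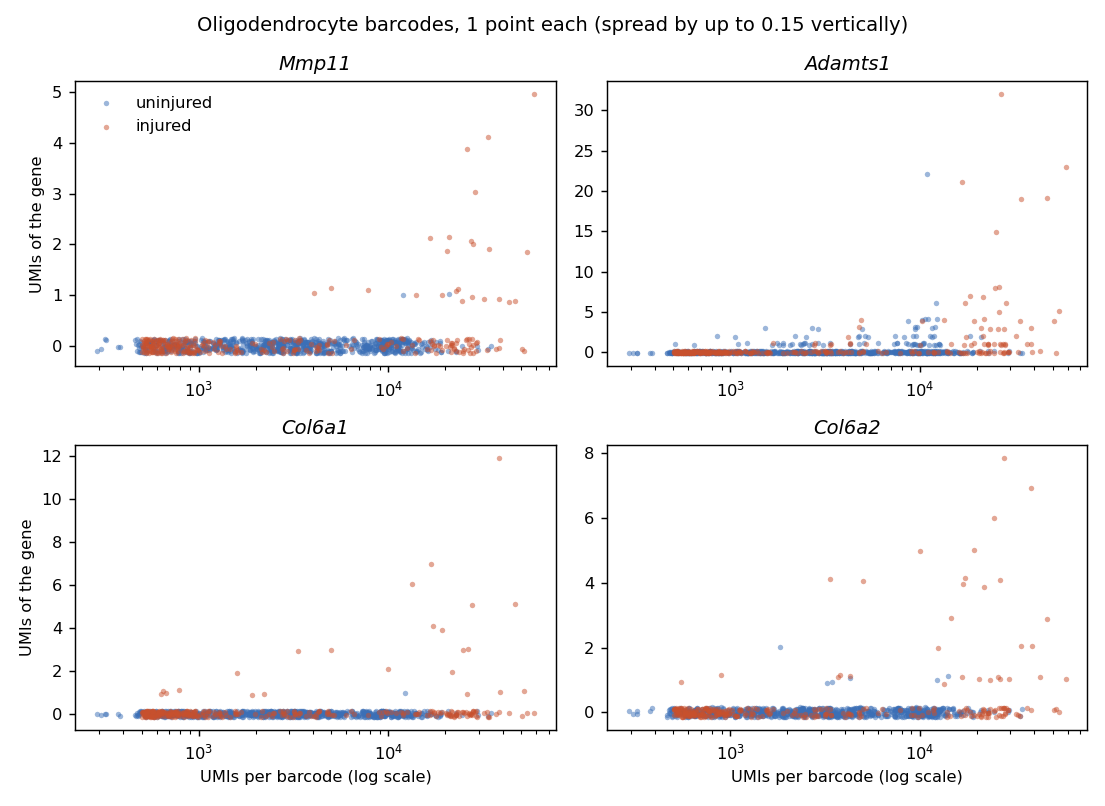
UMIs of Mmp11, Adamts1, Col6a1 and Col6a2 (y axis, linear) against the UMIs of the barcode (x axis, log scale), 1 point for each oligodendrocyte barcode of the uninjured (blue) and injured (red) library. Points are spread by up to 0.15 vertically. Mmp11 reaches 5 UMIs in the deepest injured barcode of 58568 UMIs, and Adamts1 reaches 32 UMIs in 1 injured and 22 UMIs in 1 uninjured barcode.

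The other genes of matrix breakdown and assembly were taken from a list of 132 genes, with the members among them. In oligodendrocytes 52 of them had at least 20 summed UMIs, of which 16 were past 2-fold higher and 9 lower in the injured library. Without the members it was 12 higher and 7 lower of 44 (27.3% and 15.9%), beside the 7.72% and 5.69% over all genes, with a median ratio of 1.23 beside 1.03. The list was chosen with earlier results of these data known, so nothing is read from these shares. Among collagens, 7 of 12 were higher, and besides collagen VI these were Col23a1 (5.12, 3.36 to 7.97), Col1a2 (2.47, 1.46 to 4.22), Col16a1 (2.43, 2.03 to 2.91), Col27a1 (2.10, 1.31 to 3.38) and Col4a1 (2.02, 1.59 to 2.57), while Col9a1 was lower (0.1502, 0.0296 to 0.475). Of the 8 ADAM family genes with enough UMIs, 0 were past 2-fold, Adam10 with 1.22 (1.05 to 1.42) and Adam11 with 0.669 (0.595 to 0.752) among them. Of the 132 genes, 3 (Col1a1, Col1a2 and Col3a1) are also on the fibroblast, pericyte and endothelial list.

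The gene of the list with most UMIs was Sparc, a secreted protein that binds collagen, with 588 UMIs in uninjured and 2039 in injured oligodendrocytes, 142 and 886 CPM, a ratio of 6.25 (5.70 to 6.86). In NFOs its ratio was 2.81 (1.73 to 4.84). Itgb1, the beta 1 integrin chain of collagen and laminin receptors, had ratios of 2.65 (2.33 to 3.01) in oligodendrocytes and 4.64 (2.76 to 8.41) in NFOs. Of the ADAMTS family, Adamtsl3, an ADAMTS-like protein without the protease domain, was 7.54 (4.69 to 12.6) times higher in injured oligodendrocytes, Adamtsl4 had 1.25 (1.05 to 1.48) and Adamts20 0.364 (0.219 to 0.579). The cathepsin inhibitor Cst3 had 1.75 (1.57 to 1.94) and the plasminogen activator Plat 1.41 (1.17 to 1.69). Versican (Vcan), a substrate of Adamts1 and Adamts4, had 19 and 4 UMIs in oligodendrocytes, 0.379 (0.0939 to 1.142), and in NFOs 1349 and 705 CPM, a ratio of 0.522 (0.420 to 0.652). Brevican (Bcan), another substrate, had 25 and 46 UMIs in oligodendrocytes, 3.32 (2.00 to 5.63), and in NFOs a ratio of 1.10 (0.800 to 1.53). Timp1, the TIMP outside the members, had 1 uninjured and 8 injured UMIs in oligodendrocytes, and Mmp9 had 0 in both.

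**Figure D5:**
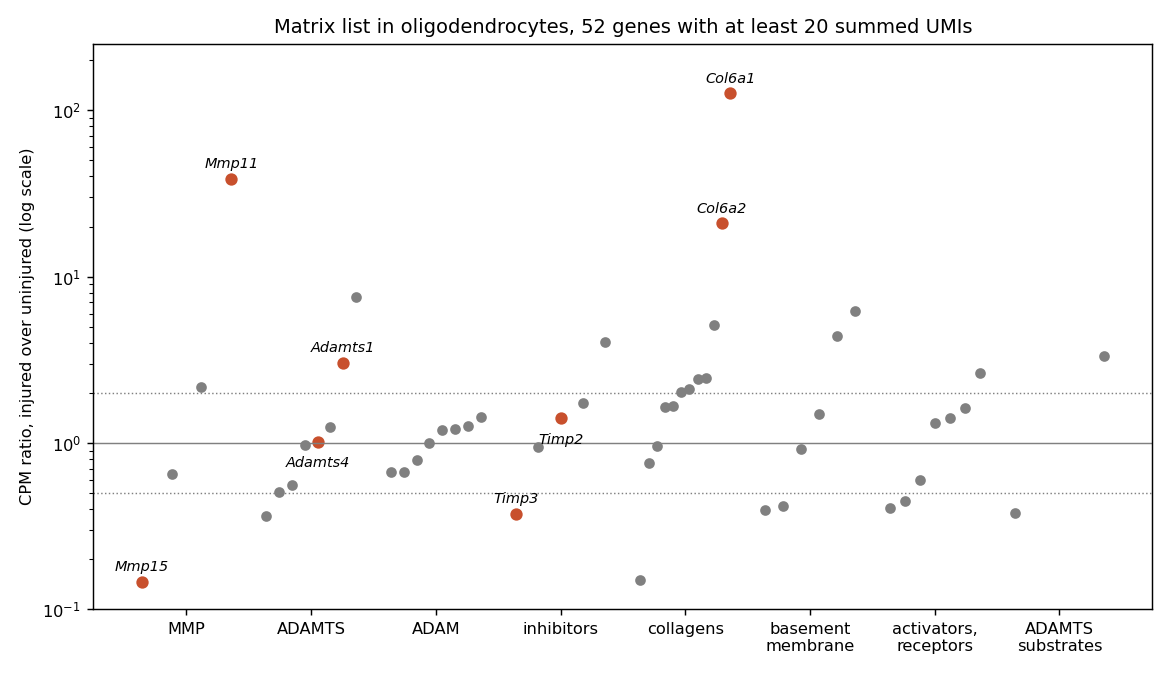
Ratio of CPM between the injured and the uninjured library (y axis, log scale) for the 52 genes of the matrix list with at least 20 summed UMIs in oligodendrocytes, by group (x axis), with members in red and the others in gray. The line marks 1 and the dotted lines 2-fold. Col6a1 (126), Mmp11 (38.7) and Col6a2 (20.9) lie highest and Mmp15 (0.146) lowest.

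Genes with the most similar pattern were sought for 4 members over 16 classes of type, library and depth, by Pearson r of log2(CPM + 10) among 5321 genes with at least 200 UMIs. The classes share 2 libraries, so r is a description. A class needed at least 10 barcodes, which left out, among others, all injured OPCs and the injured NFOs of at least 10000 UMIs. These NFOs held 21 of the 23 Col6a1 UMIs and 75 of the 145 Timp4 UMIs of injured NFOs. Nearest to Adamts4 were Opalin (0.930), a gene of mature oligodendrocytes, Arhgap23 (0.919) and Map7d1 (0.918). Nearest to Timp4 were Rtn1 (0.965), Scg3 (0.958) and Gng3 (0.955). Col6a1 was nearest to the stress-induced transcription factor gene Atf3 (0.897), Gadd45b (0.828) and Abca1 (0.824). For Mmp11 no gene came above 0.683, the value of Emp3, followed by Spry1 (0.671) and Rhoj (0.664). Mmp11 had 49 UMIs in all and Col6a1 94, fewer than the 200 asked of the genes searched. A low r for Mmp11 cannot be told apart from the effect of sparse counts.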

How the data were processed

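The authors made 1 library for each condition on the 10x Genomics platform, demultiplexed the reads with bcl2fastq 2.17.1.14, aligned and counted them with Cell Ranger 1.3 (mm10), kept barcodes with at least 200 genes, at most 150000 UMIs and at most 20% mitochondrial UMIs, drew equal numbers of cells per library and typed them in Seurat 4.0.3. They deposited natural log values (NE, per 10000 UMIs) of the lineage. A table of both libraries with the same values was not used, and cells outside the lineage were not analysed here.

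UMIs were recovered by undoing the log and scaling each barcode so that its smallest value was 1 UMI, and were whole within 0.001 in 100% of 1369 barcodes. Summed UMIs were compared as ratios of CPM with exact 95% intervals, counting error only, and 3 UMIs over the class stood in for 0. Genes needed 20 summed UMIs for a call of 2-fold. Cells of 1 library are not replicates, so no p-value was computed and the analysis of variance of the study's methods was not repeated. The steps ran in Python 3.11.15 with numpy 2.4.6, scipy 1.17.1, pandas 2.3.3 and Biopython 1.88, and were tested on simulated counts. Doublets were called with Scrublet in scanpy 1.11.5, in 10 uninjured (1.04%) and 3 injured (0.732%) barcodes, and were kept except in an alternative.

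The members and lists were chosen with earlier results of these data known. Named were the 9 members, from the matrix list in oligodendrocytes the 10 genes with most UMIs and the 5 with the highest and the 5 with the lowest ratio, and the 3 genes most like 4 of the members. Other collagens past 2-fold, Col6a3 to Col6a6, Timp1, Mmp9 and Bcan were named after their values were seen.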

Additional observations from a re-analysis of the deposited data

How the results depend on the processing

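With 1 library per condition, counting error is the only error shown, and the uninjured NFOs (94130 UMIs) and injured OPCs (17 barcodes) limit rare genes most. Counts of members past 2-fold moved by over 1.5 times in 35 of 106 values, and ratios of members moved beyond their counting interval in 37 of 331 values. A ratio past 2-fold crossed 1 in 9 more. Ratios under 2-fold that crossed 1 are not among the 9, such as Timp2 in oligodendrocytes (0.827 under 8000 UMIs) and in injured NFOs over oligodendrocytes (1.32 thinned to 500 UMIs), and by mean CPM over barcodes Timp3 in NFOs (0.453) and Adamts4 in oligodendrocytes (0.642). Thinned to 500 UMIs, a depth at which few members have 20 UMIs, the counts were 0 higher and 0 lower in injured against uninjured oligodendrocytes, 0 and 0 in NFOs, 0 and 0 in injured NFOs against oligodendrocytes, and 1 higher and 0 lower in uninjured OPCs against oligodendrocytes. In barcodes under 8000 UMIs they were 0 higher and 0 lower in oligodendrocytes, 0 higher in NFOs, and 1 higher and 0 lower in injured NFOs against oligodendrocytes. By mean CPM over barcodes 1 was lower in oligodendrocytes, and 1 was higher and 2 lower in NFOs. With at least 50 summed UMIs 0 were lower in oligodendrocytes, 0 higher and 0 lower in NFOs and 3 higher in OPCs against oligodendrocytes. Without barcodes under 0.5% Malat1, NFOs had 1 higher and 0 lower, under stricter limits (500 genes, 10% mitochondrial UMIs) 0 and 0, and scaled by the median ratio 0 higher. NFOs had 1 higher with at least 1000 UMIs per barcode, without Scrublet doublets, without each gene's top barcode (3 higher in OPCs against oligodendrocytes) and without barcodes with a fibroblast, pericyte or endothelial marker (1 lower in oligodendrocytes). Of the alternatives added after seeing the data, leaving out barcodes with an astrocyte marker gave 0 lower in oligodendrocytes and 1 higher and 0 lower in OPCs against oligodendrocytes, and barcodes of at least 10000 UMIs gave 1 lower in oligodendrocytes.

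The injured over uninjured ratio in oligodendrocytes was above 1 in the 13 alternatives with a value for Col6a1 (8.58 to 436) and Col6a2 (7.15 to 32.9) and in the 11 for Mmp11 (10.5 to 70.1), which had at most 3 UMIs in either class thinned to 500 UMIs and under 8000 UMIs. That of Adamts1 was 0.780 thinned to 500 UMIs (6 injured and 22 uninjured UMIs) and otherwise up to 3.62. In barcodes under 8000 UMIs the ratio of Adamts1 was not past 2-fold, like that of every member counted there. Col6a1 in injured NFOs over oligodendrocytes turned from 2.15 to 0.648 by mean CPM over barcodes, 0.326 thinned to 500 UMIs, 0.272 under 8000 UMIs, 0.594 without fibroblast, pericyte or endothelial markers and 0.726 without its top barcode. Adamts1 in the same comparison turned to 1.13 by mean CPM over barcodes. In uninjured OPCs over oligodendrocytes Adamts1 turned from 2.97 to 0.680 thinned to 500 UMIs and 0.758 without astrocyte markers, from 1 OPC UMI each. The causes were not tested. In 4 values a class at 0 UMIs left the bound without a direction. No paired analysis was possible because each condition has 1 library.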
